A study of Mus musculus with 10 samples.

Results

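The genes of the hypoxia-inducible factor (HIF) pathway examined here were the subunits of the factor and the proteins that mark it for destruction or silence it, measured in mouse granulosa cells during the ovulatory response. The 10 genes were chosen by name: the alpha subunits Hif1a, Epas1 and Hif3a, the beta subunits Arnt and Arnt2, the prolyl hydroxylases Egln1, Egln2 and Egln3, the ubiquitin ligase component Vhl and the asparaginyl hydroxylase Hif1an. They, and the lists of other genes below, were chosen with earlier results of these data known. Shares of all genes set beside their counts are therefore descriptions and carry no test. The 10 genes were among the 19938 genes that had an array probe set carrying their symbol alone. Each was read by 1 such probe set, and 0 probe sets shared with another gene named any of them. None of the 10 lies on the chromosome of Pgr, the disrupted gene.

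The PRKO samples came from mice with the PRlacZ knock-in in both copies of Pgr, which stops transcription of both isoforms of the progesterone receptor. The PR+/- samples came from heterozygous mice with that insertion in 1 copy, so the controls were not wild type. The knock-in belonged to the whole animal and was not limited to granulosa cells. All mice were prepubertal, 21 to 23 days old, and received 5 IU of equine chorionic gonadotropin, which makes follicles grow, and 44 to 47 h later 5 IU of human chorionic gonadotropin (hCG), which starts ovulation. Granulosa cells were released from punctured antral follicles 8 h after hCG. Each array held cells pooled from 3 animals, with 5 PRKO pools and 5 PR+/- pools.

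HIF is a pair of proteins, an alpha subunit bound to a beta subunit (ARNT or ARNT2), that binds DNA and activates genes for glycolysis, vessel growth and survival at low oxygen. When oxygen is present, the EGLN enzymes (also called PHD) hydroxylate prolines of the alpha subunits, VHL then binds and sends them to the proteasome, and HIF1AN (FIH) hydroxylates an asparagine that blocks coactivator binding. HIF is therefore controlled largely at the protein level, which an array of transcripts does not read. In the ovary, HIF transcripts are induced around ovulation, and the growing corpus luteum builds a dense vessel bed.

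The values were log2 expression values as deposited, with array medians between 6.48 and 6.55 and correlations between arrays from 0.973 to 0.992. Arrays have no read depth, so the number of pools limits the precision. As a level for background, 1015 olfactory receptor genes, which granulosa cells are not known to use, had a 95th percentile of 5.87. Pgr itself did not separate the genotypes on this array (log2 difference PRKO minus PR+/- -0.46, 95% interval -1.04 to 0.12, limma adjusted p = 0.527), and where its probes sit with respect to lacZ was not known, so Pgr neither backs nor contradicts the genotype labels. Of 10 measured granulosa cell markers, 0 had a mean under the background level in both genotypes. Among these markers 0 passed limma at an adjusted p under 0.05, and 7 had an unadjusted p under 0.05, beside 13.0% of all genes. Their log2 differences ran from -0.49 for Fshr, the receptor for follicle-stimulating hormone, to 0.60 for Inhba, an inhibin and activin subunit, with a median of 0.23. The part of these differences in the results below was not tested.

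PRKO granulosa cell pools had less Epas1 and more Egln3 transcript than PR+/- pools, and the other 8 genes did not pass the test. In limma, with Benjamini-Hochberg adjustment over all 19938 genes, 1 of the 10 was lower in PRKO at an adjusted p under 0.05 and 1 was higher. Across all genes, 2.46% passed, 1.71% as lower and 0.752% as higher. At an unadjusted p under 0.05 there were 4 of the 10 (Epas1, Egln3, Hif1a and Hif1an), beside 13.0% of all genes. The pools of the genotypes did not overlap in 2 of the 10, against 4.42% of all genes. The median log2 difference of the 10 was -0.03, beside -0.02 for all genes.

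**Figure D1:**
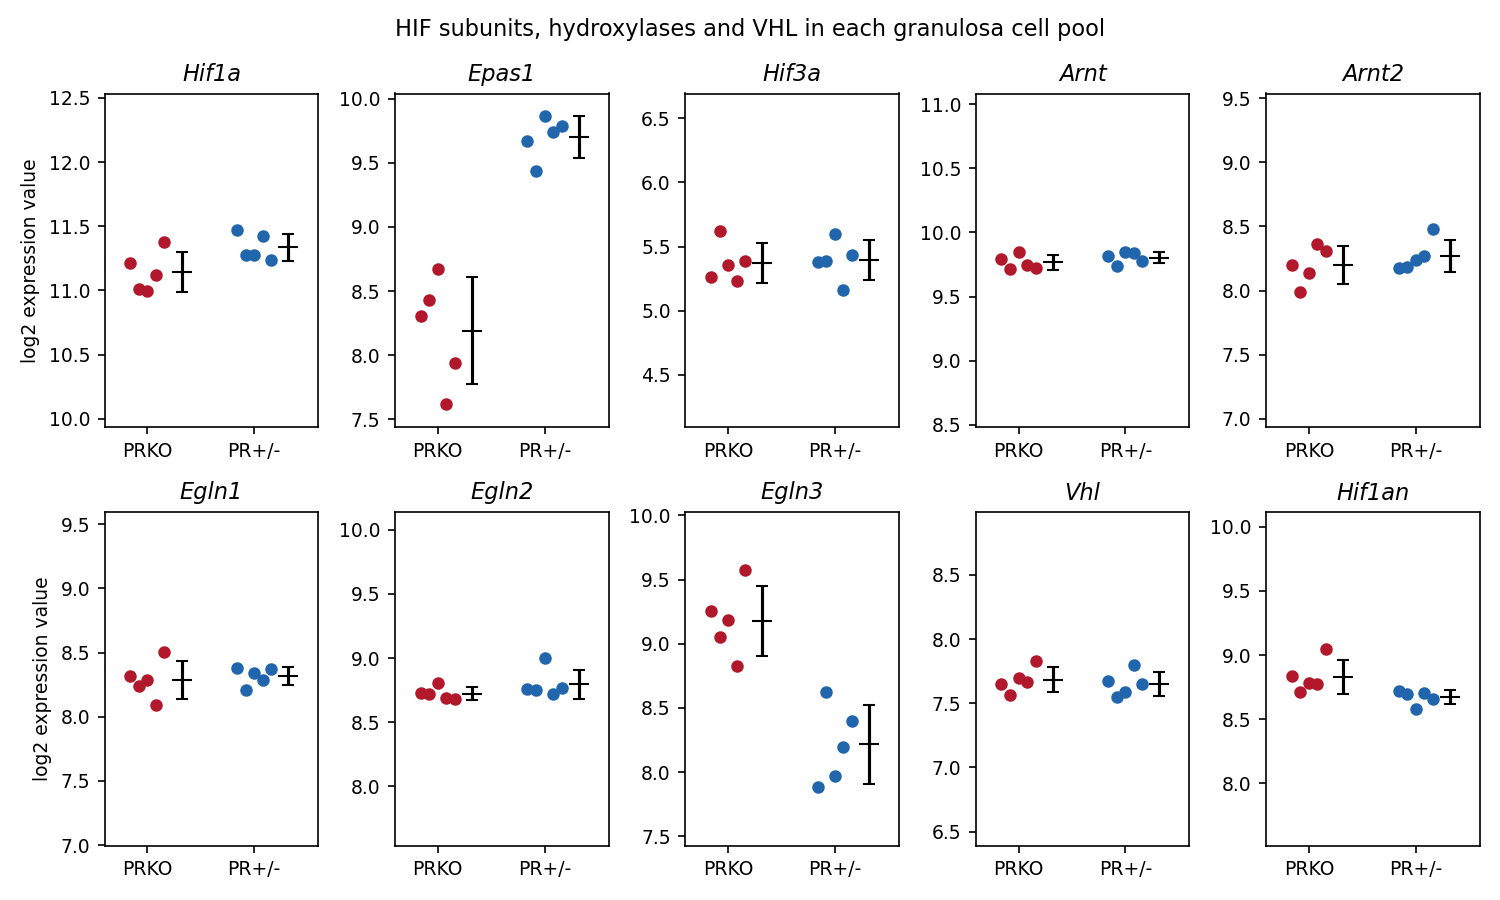
Log2 expression value (y axis, each panel spanning the same range) of the 10 genes in the 5 PRKO pools (red) and the 5 PR+/- pools (blue). Points are pools, and the bar beside them is the mean ± SD. The PRKO points of Epas1 all lie below, and those of Egln3 all above, the PR+/- points, and the points of the other 8 genes overlap.

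Among the alpha subunits, Epas1 changed most. It encodes HIF-2 alpha, which is abundant in vessel walls, lung and kidney and drives erythropoietin and many vascular genes. PRKO pools 1 to 5 read 8.31, 8.43, 8.67, 7.62 and 7.94, against 9.67, 9.44, 9.86, 9.74 and 9.79 in PR+/- pools 1 to 5. The highest PRKO pool lay 0.77 log2 units below the lowest PR+/- pool, and the PRKO pools were more spread out (8.19 ± 0.42 in PRKO, 9.70 ± 0.16 in PR+/-, SD, n = 5 pools each). The transcript was 2.84-fold lower in PRKO (95% interval 2.23 to 3.62), a log2 difference of -1.51 (SE 0.16, limma adjusted p = 7.27e-05). By size this was number 24 among the 341 genes that passed as lower. Fewer cells of a type and less RNA per cell cannot be told apart in such pools.

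Because Epas1 is a well known endothelial gene, 12 endothelial markers were read beside it. None of the 12 passed limma at an adjusted p under 0.05 (1 at an unadjusted p under 0.05), and their median log2 difference was -0.05. The summed linear signal of the list ran from 1182 to 1698 in PRKO pools and from 1118 to 1460 in PR+/- pools, so the ranges overlapped, with the top pool in PRKO. Of the 12 markers, 3 had means under background in both genotypes. Pecam1, an adhesion molecule of endothelial cells, averaged 6.78 ± 0.30 in PRKO and 6.83 ± 0.26 in PR+/-. Cdh5, the endothelial cadherin, averaged 7.07 ± 0.31 in PRKO and 7.41 ± 0.31 in PR+/-, and Kdr, the main receptor for VEGF, averaged 8.19 ± 0.27 in PRKO and 7.78 ± 0.30 in PR+/- (SD, n = 5 pools each). Kdr was the marker with an unadjusted p under 0.05 in limma. As the brightest of the 12, it also weighed most in the summed linear signal. These 3 markers, and Fshr and Inhba above, were named after their values were seen. Lists for pericytes and smooth muscle (8 measured), theca cells (7), macrophages and leukocytes (8), oocytes (10), surface epithelium (7) and erythroid cells (1) also had 0 calls in limma. Of their genes, 1 macrophage and leukocyte gene and 1 oocyte gene had an unadjusted p under 0.05. In that order the lists had median log2 differences of 0.01, 0.13, -0.07, -0.13, 0.06 and 0.21. In the same order, 2, 1, 4, 0, 1 and 0 of their genes were under background in both genotypes. Signal for genes of other cell types was thus present in the pools, and the share of such cells was not measured.

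Hif1a, the alpha subunit that drives glycolytic genes in most tissues, was read at high level in all 10 pools. PRKO pools 1 to 5 read 11.22, 11.01, 11.00, 11.12 and 11.37, against 11.47, 11.28, 11.27, 11.42 and 11.23 in PR+/- pools 1 to 5. The groups overlapped, since PRKO pool 5 lay above 3 of the PR+/- pools. The log2 difference was -0.19 (95% interval -0.38 to -0.01, limma adjusted p = 0.355), and the two-sided exact permutation test over pools gave p = 0.0556. Without PRKO pool 5 the difference was -0.25 and the adjusted p 0.174.

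Hif3a, an alpha subunit with short forms that restrain the other subunits, was dim. Its PRKO pools lay between 5.23 and 5.63 and its PR+/- pools between 5.16 and 5.60. Both means (5.37 in PRKO, 5.39 in PR+/-) were under the background level of 5.87, so its log2 difference of -0.02 says little about the transcript. The beta subunit Arnt, the common partner of the alpha subunits, hardly varied. Its PRKO pools lay between 9.72 and 9.85 and its PR+/- pools between 9.74 and 9.85, and its SD within genotypes (0.05) was smaller than that of all but 0.963% of genes. Its log2 difference was -0.04 (95% interval -0.17 to 0.09). Arnt2, a partner best known from neurons, lay between 7.99 and 8.37 in PRKO pools and between 8.18 and 8.48 in PR+/- pools, with a log2 difference of -0.07 (95% interval -0.25 to 0.12).

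Of the prolyl hydroxylases, Egln3 alone passed. Its enzyme, PHD3, is known as a HIF-induced brake on the pathway that favours HIF-2 alpha among its substrates. PRKO pools 1 to 5 read 9.26, 9.06, 9.19, 8.83 and 9.57, against 7.88, 8.63, 7.97, 8.20 and 8.40 in PR+/- pools 1 to 5. Every PRKO pool lay above every PR+/- pool, with 0.20 log2 units between the nearest pools, PRKO pool 4 and PR+/- pool 2. The transcript was 1.95-fold higher in PRKO (95% interval 1.56 to 2.44), with means of 9.18 ± 0.27 in PRKO and 8.22 ± 0.31 in PR+/- (SD, n = 5 pools each). The log2 difference was 0.96 (SE 0.15, limma adjusted p = 0.00208), number 7 by size among the 150 genes that passed as higher.

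Egln1, whose product PHD2 sets HIF levels in most cells at normal oxygen, lay between 8.09 and 8.50 in PRKO pools and between 8.21 and 8.38 in PR+/- pools. Its log2 difference was -0.03 (95% interval -0.20 to 0.14, limma adjusted p = 0.924). Egln2, whose product is PHD1, lay between 8.68 and 8.80 in PRKO pools and between 8.72 and 9.00 in PR+/- pools, and PR+/- pool 3 stood apart from the rest at 9.00. Its log2 difference was -0.07 (95% interval -0.22 to 0.08, limma adjusted p = 0.717), and -0.02 without that pool (adjusted p = 0.949). Both sets of pools overlapped.

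Vhl, the substrate receptor of the ligase that recognizes hydroxylated alpha subunits, lay between 7.56 and 7.83 in PRKO pools and between 7.55 and 7.80 in PR+/- pools. Its log2 difference was 0.03 (95% interval -0.12 to 0.19, limma adjusted p = 0.902). Hif1an read 8.83, 8.71, 8.78, 8.78 and 9.05 in PRKO pools 1 to 5, against 8.72, 8.70, 8.58, 8.70 and 8.65 in PR+/- pools 1 to 5. The groups met only at PRKO pool 2 and PR+/- pool 1, which differed by 0.01. The log2 difference was 0.16 (95% interval 0.00 to 0.32), which did not pass over all genes in limma (adjusted p = 0.384), while the two-sided exact permutation test of this gene alone gave p = 0.0159. Without PRKO pool 5 the difference was 0.10 (limma adjusted p = 0.632).

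**Figure D2:**
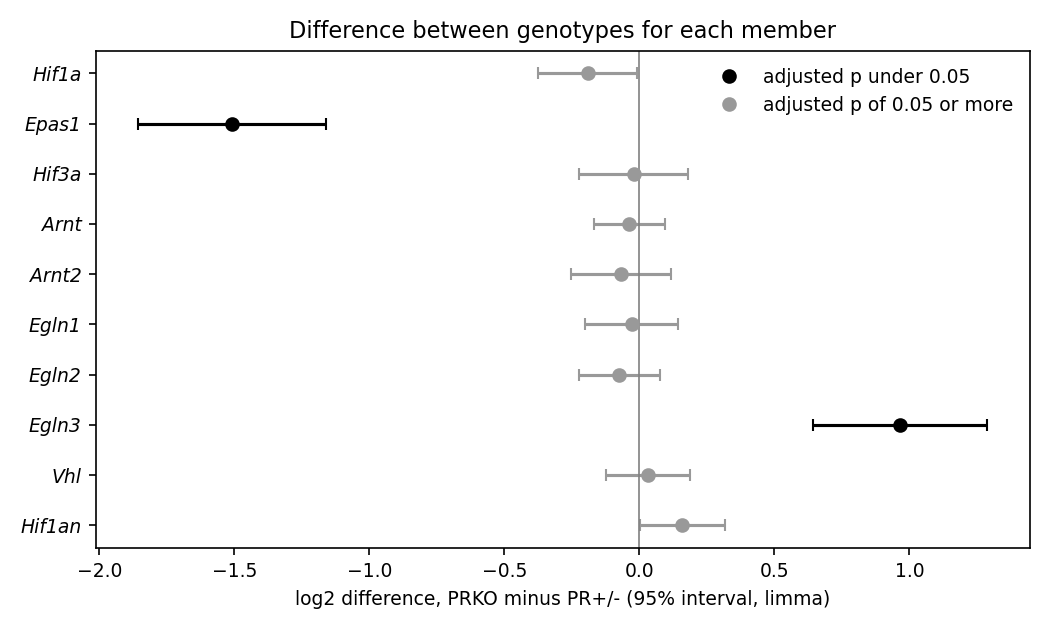
Log2 difference, PRKO minus PR+/- (x axis), of each of the 10 genes (y axis), with limma's 95% interval. Black marks an adjusted p under 0.05, reached by Epas1 at -1.51 and Egln3 at 0.96, and grey marks the other 8, which lie between -0.19 and 0.16.

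The intervals bounded the genes that did not pass. For the 6 with an unadjusted p of 0.05 or more (Hif3a, Arnt, Arnt2, Egln1, Egln2 and Vhl), the intervals ran from -0.25 to 0.19 on the log2 scale, so a change of more than 1.19-fold either way lay outside them. For Hif3a that bound describes a signal at background. PRKO pool 5 had the highest PRKO value for 5 of the 10 genes (Hif1a, Egln1, Egln3, Vhl and Hif1an), and PRKO pool 4 the lowest for 4 (Epas1, Hif3a, Egln1 and Egln3). The Epas1 difference was -1.44 without PRKO pool 5 and -1.36 without PRKO pool 4, and that of Egln3 was 0.87 and 1.05 (limma adjusted p up to 0.00517 in these 4 fits).

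Related genes were then set against each other within each array, a comparison that a shift of a whole array does not touch. The level of 1 probe set above another has no meaning here, and only its change between genotypes was read. Epas1 relative to Hif1a fell by 1.31 on the log2 scale in PRKO, with no overlap between genotypes (two-sided exact permutation p = 0.00794, the smallest that 5 against 5 pools allow, and 0.0132 after Benjamini-Hochberg adjustment over the 5 differences computed). Egln3 relative to Egln1 was higher in PRKO by 0.99, and relative to Egln2 by 1.04, each with no overlap and with the same exact p-values. The changes of Epas1 and Hif1a, and of Egln3 and the other hydroxylases, were thus unequal. These tests reuse the Epas1 and Egln3 values that passed above, with Egln3 in both hydroxylase pairs. They are therefore not separate evidence that Epas1 and Egln3 differ between genotypes.

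The other relations gave small differences. Hif3a relative to Hif1a differed by 0.17 (95% interval -0.17 to 0.51, exact permutation p = 0.317), with Hif3a at background. Arnt2 relative to Arnt differed by -0.03 (95% interval -0.32 to 0.26, exact permutation p = 0.754). Both intervals came from limma fitted to the 5 computed differences alone, some of which share a gene.

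**Figure D3:**
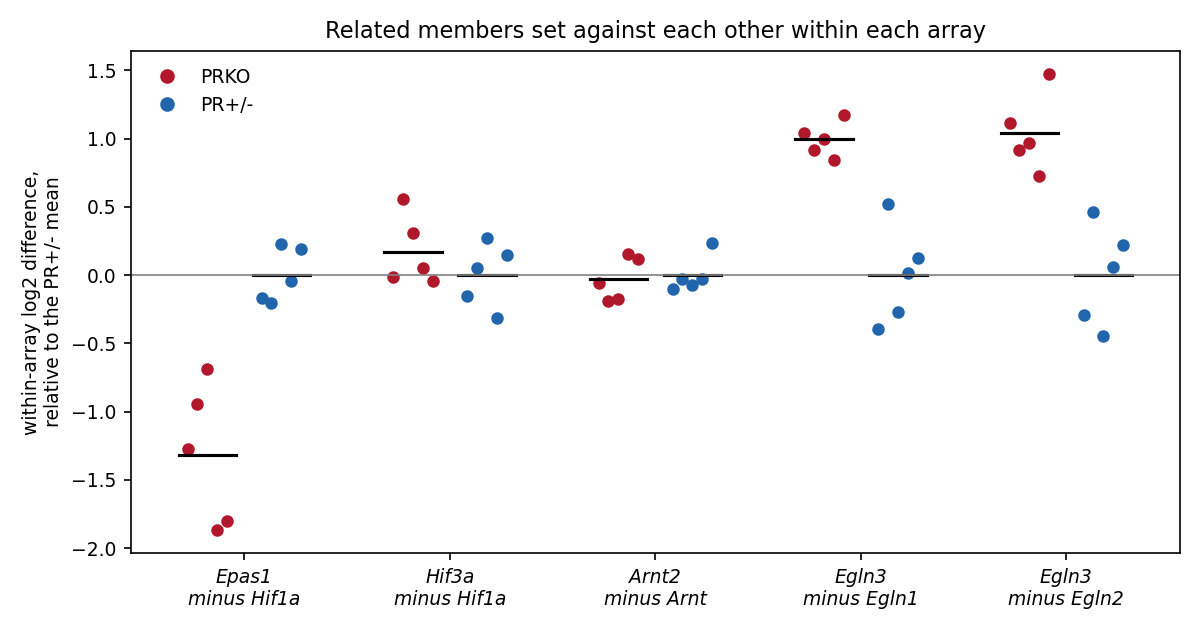
Within-array log2 difference between related genes (y axis, with the mean of the PR+/- pools set to 0) for 5 pairs of genes (x axis). PRKO pools are red, PR+/- pools blue, and black lines are means. PRKO pools lie apart below for Epas1 minus Hif1a (mean change -1.31) and apart above for Egln3 minus Egln1 (0.99) and Egln3 minus Egln2 (1.04).

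The promoters of the 3 hydroxylase genes are shown because these relatives changed unequally. The sequences are the 250 bases before the annotated start, from RefSeq on GRCm38.p6, written 5′ to 3′ on the strand of the gene. Capitals mark the core of the HIF binding site, ACGTG or GCGTG, on either strand.
Egln3 (chr12:54203875-54204124, minus strand): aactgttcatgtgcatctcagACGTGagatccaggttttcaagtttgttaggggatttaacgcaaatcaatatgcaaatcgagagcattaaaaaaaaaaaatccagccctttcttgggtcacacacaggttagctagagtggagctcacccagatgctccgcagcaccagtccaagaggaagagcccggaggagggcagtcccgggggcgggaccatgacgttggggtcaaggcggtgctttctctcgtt
Egln1 (chr8:124949255-124949504, minus strand): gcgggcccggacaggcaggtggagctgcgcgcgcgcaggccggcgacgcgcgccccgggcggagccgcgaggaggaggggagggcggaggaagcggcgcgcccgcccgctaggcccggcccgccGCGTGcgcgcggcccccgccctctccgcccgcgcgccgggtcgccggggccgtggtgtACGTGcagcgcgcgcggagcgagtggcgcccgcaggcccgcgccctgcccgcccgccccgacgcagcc
Egln2, the upstream of 2 starts (chr7:27166803-27167052, minus strand): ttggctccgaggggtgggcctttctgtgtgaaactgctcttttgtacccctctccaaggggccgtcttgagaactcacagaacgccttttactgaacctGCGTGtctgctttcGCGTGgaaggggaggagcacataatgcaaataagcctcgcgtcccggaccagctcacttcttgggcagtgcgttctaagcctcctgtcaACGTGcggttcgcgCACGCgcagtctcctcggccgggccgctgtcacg
Egln3, the hydroxylase that rose, held 1 core match, an ACGTG that begins 229 bases before the start. Egln1 held 1 ACGTG and 1 GCGTG, and this Egln2 window held 1 ACGTG and 3 GCGTG, while the other Egln2 start had 1 GCGTG. The 3 windows differed in base composition, with a GC content of 50.8% for Egln3, 86.0% for Egln1 and 59.2% for Egln2.

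Of the 10 genes, 9 had a promoter in the table, and Epas1 did not. A core match of either kind was present for 6 of the 9 genes (66.7%), and in 38.6% of 32851 mouse promoter windows of that length (16.6% with ACGTG and 28.2% with GCGTG). The first share counts genes and the second counts windows, so they are not in like units. Egln2 counted once, with a match before each of its starts. Hif1a had 3 matches, of which 2 overlap as the palindrome CACGTG, and Arnt2, Vhl and Hif1an had 0. The core of the element bound by progesterone and glucocorticoid receptors, searched as ACANNNTGT on both strands, was in 0 of the 9 genes' windows and in 5.8% of all windows. A match is a description of these letters and not a binding site.

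Genes known as HIF targets were read from a list of 23, of which 21 were measured. The list did not include Egln3, described above as HIF-induced, which rose in PRKO (log2 difference 0.96, limma adjusted p = 0.00208). The counts that follow therefore leave that rise out, and they also leave out every gene placed in another list. The share thus depends on how the lists were drawn. In PRKO 3 of them fell and 0 rose at a limma adjusted p under 0.05 (14.3%, beside 2.46% of all genes), 7 had an unadjusted p under 0.05, and the list median was -0.13 beside -0.02 for all genes. Pfkfb3 and Pfkfb4 encode bifunctional enzymes that make and break fructose 2,6-bisphosphate, the activator of glycolysis, and Ddit4 is an inhibitor of mTOR signalling also induced by glucocorticoids.

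Pfkfb4 read 8.45, 8.26, 8.46, 8.19 and 8.58 in PRKO pools 1 to 5, against 9.23, 8.92, 9.09, 9.31 and 9.23 in PR+/- pools 1 to 5. Its log2 difference was -0.77 (SE 0.09, limma adjusted p = 0.000239). Pfkfb3 read 8.31, 8.10, 8.33, 7.99 and 8.25 in PRKO pools, against 8.98, 8.49, 8.82, 8.71 and 8.56 in PR+/- pools, a log2 difference of -0.51 (SE 0.10, limma adjusted p = 0.0133). For both enzymes every PRKO pool lay below every PR+/- pool. Ddit4 read 8.81, 8.99, 9.31, 8.93 and 9.63 in PRKO pools, against 9.94, 9.90, 9.88, 10.19 and 10.12 in PR+/- pools, again without overlap (log2 difference -0.87, SE 0.14, limma adjusted p = 0.00200).

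Many classical targets did not pass, and they are named after their values were seen. Vegfa, the vessel growth factor, had a log2 difference of 0.15 (95% interval -0.05 to 0.35). Slc2a1, the glucose transporter GLUT1, had -0.09 (-0.26 to 0.08) and Ldha, lactate dehydrogenase A, 0.09 (-0.05 to 0.23). Among mitophagy and glycolysis genes Bnip3 had -0.35 (-0.60 to -0.10, limma adjusted p = 0.183) and Pgk1 -0.16 (-0.36 to 0.04), and Edn1, the vasoconstrictor endothelin 1, had -0.25 (-0.46 to -0.04, limma adjusted p = 0.276). The differences of the 18 targets that did not pass ran from -0.35 to 0.31.

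The list of HIF cofactors and turnover factors gave 1 call among 14 measured of 16 (7.14%, beside 2.46% of all genes), and 5 had an unadjusted p under 0.05. Whether a listed gene helps or hinders HIF was not tested. Cited4, a coactivator of the CITED family, which binds the same region of EP300 and CREBBP as the HIF alpha subunits do, was higher in PRKO. It read 10.60, 10.57, 10.40, 10.42 and 11.27 in PRKO pools 1 to 5, against 9.93, 9.33, 9.92, 9.74 and 10.05 in PR+/- pools 1 to 5. The pools did not overlap (log2 difference 0.86, SE 0.17, limma adjusted p = 0.0106). PRKO pool 5 stood apart, and without that pool the difference was 0.71 (limma adjusted p = 0.00913). Ep300, the acetyltransferase that HIF recruits, had 9.72 ± 0.09 in PRKO and 9.99 ± 0.06 in PR+/- (SD, n = 5 pools each). Its pools did not overlap either, but its log2 difference of -0.27 (SE 0.07) lay just outside the threshold (limma adjusted p = 0.0520). It passed in 4 other settings, among them quantile normalization (adjusted p = 0.0173). The list median was -0.01.

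The families related to the HIF subunits and hydroxylases gave no calls. Among 9 measured of 11 other bHLH-PAS factors, the family of the HIF subunits, 0 passed in limma, 1 had an unadjusted p under 0.05 and 4 were under background in both genotypes. Ahr, the dioxin receptor, which also pairs with ARNT, had 8.05 ± 0.24 in PRKO and 7.70 ± 0.14 in PR+/- (log2 difference 0.35, limma adjusted p = 0.139). It passed with the replicate number as a block (adjusted p = 0.0486). Arntl, the clock factor BMAL1, had a difference of -0.22 (limma adjusted p = 0.410). Among 15 related 2-oxoglutarate dioxygenases, 0 passed and 3 had an unadjusted p under 0.05. The smallest p belonged to Plod3, a collagen lysyl hydroxylase (0.25, limma adjusted p = 0.120), and P4ha2, a collagen prolyl hydroxylase (-0.24, limma adjusted p = 0.257). The medians of these lists were -0.02 and 0.02.

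**Figure D4:**
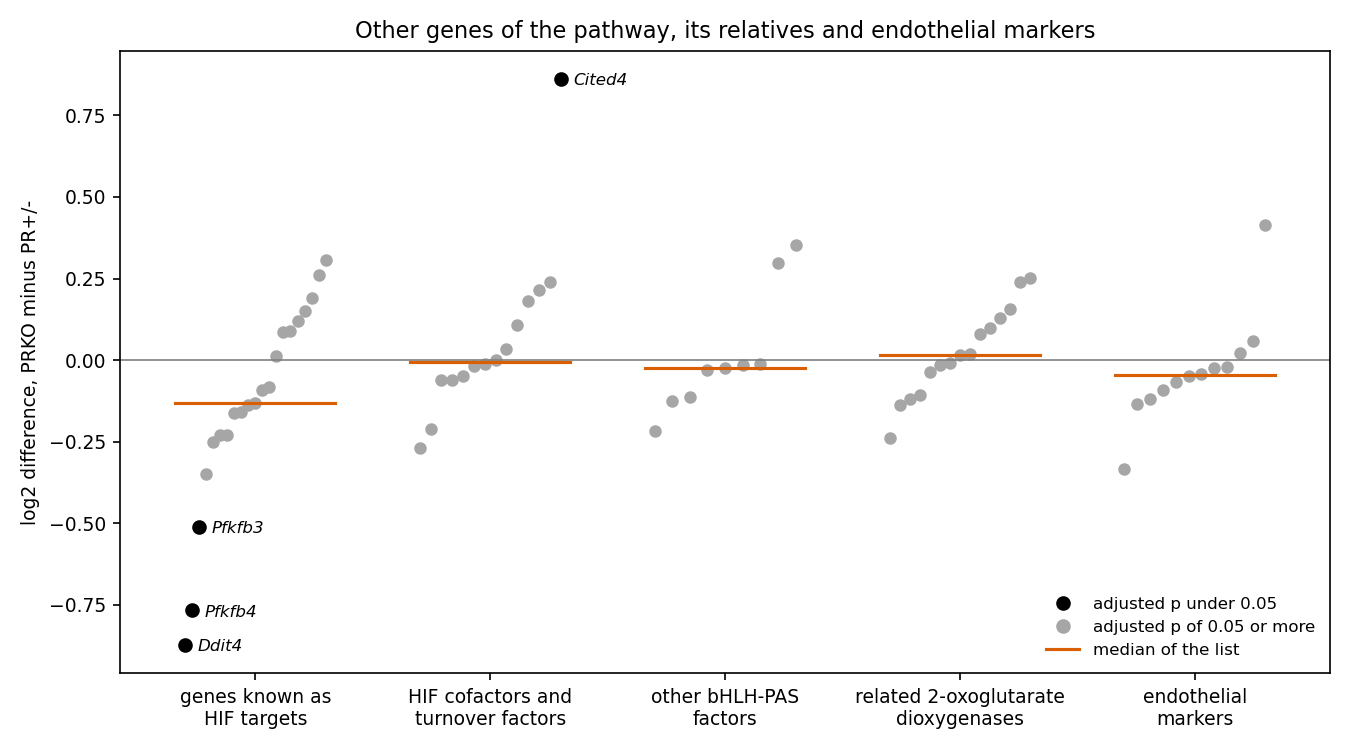
Log2 difference, PRKO minus PR+/- (y axis), of each measured gene of 4 lists of related genes and of the endothelial markers (x axis). Black points passed limma at an adjusted p under 0.05 (Pfkfb3, Pfkfb4, Ddit4 and Cited4), grey points did not, and orange lines are list medians, which lie between -0.13 and 0.02.

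The genes whose profiles lay closest to those of Epas1 and Egln3 over the 10 pools were found by the root mean square distance between log2 values, each gene centred on its own mean. For Epas1 they were Gas7, a growth arrest gene that acts on the cytoskeleton, at 0.20, Cgn, the tight junction protein cingulin, at 0.23, Etl4 at 0.24 and Tbc1d8, a Rab regulator of the TBC family, at 0.24, where the median over all genes was 0.80. All 4 were lower in PRKO, by log2 differences from -1.76 to -1.24. For Egln3 they were Pappa, a protease that frees insulin-like growth factors, at 0.20, Epha5, an ephrin receptor, at 0.21, Hey1, a target of NOTCH signalling, at 0.22 and Mical2, which oxidizes actin, at 0.23, beside a median of 0.57. These 4 were higher in PRKO, by 0.62 to 0.85. The genotype difference makes up most of such a profile, so the likeness is a description and carries no test.

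**Figure D5:**
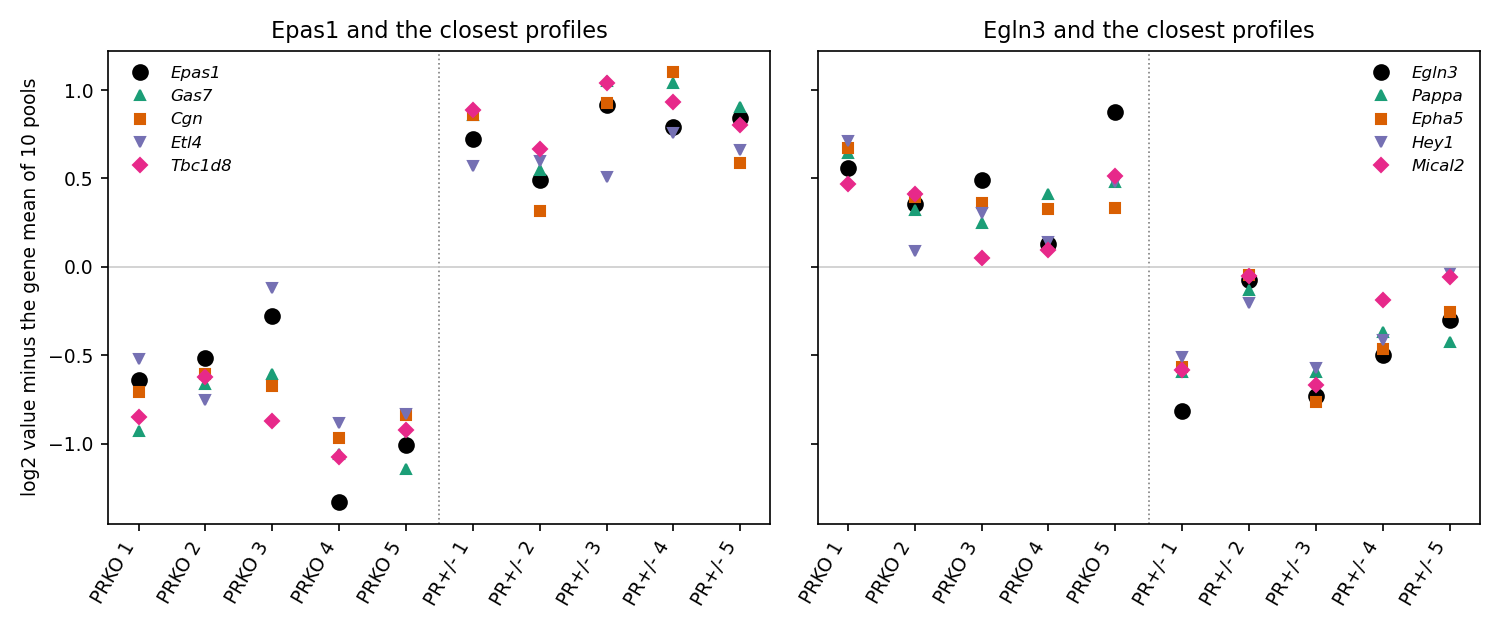
Log2 value minus the gene's mean over 10 pools (y axis) in each pool (x axis, PRKO left of the dotted line and PR+/- right of it) for Epas1 with its 4 closest genes and for Egln3 with its 4. Pools have no order within a genotype. Epas1 and its group lie under 0 in all PRKO pools, and Egln3 and its group lie above 0 there.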

How the data were processed

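The deposited table holds log2 expression values for 35557 probe sets of whole-transcript arrays in 10 samples. Per the submitters' processing notes it was made with Partek; how the authors corrected background, normalized and summarized probes is not stated in those notes or in the labels. Of the probe sets, 21789 carried 1 gene symbol, 1621 several and 12147 none. For a gene with more than 1 probe set, that of the highest mean was kept (19938 genes). Genotypes and replicate numbers came from the sample titles. PRKO was compared with PR+/- with the linear model and moderated variance of limma (version 3.58.1, R 4.3.3), without a block, with Benjamini-Hochberg adjustment over all genes and a threshold of 0.05. Differences are PRKO minus PR+/- in log2 units. Permutation tests were two-sided and exact over the 252 splits of the pools. The 10 genes, the lists (122 of 135 entries measured, 1 through a synonym) and the tests were chosen with earlier results of these data known. The text names the 10 genes, list members that passed or had the 2 smallest p-values, and the 4 closest profiles of each gene that passed; other genes were named after their values were seen. Gene names and promoters came from RefSeq tables of GRCm38.p6. The limma script was tested on simulated data. Same-numbered pools did not deviate together in every pair (correlations from -0.10 to 0.32), so the numbers were not treated as pairs. Figures used Python 3.11.15 and matplotlib 3.10.9.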

Additional observations from a re-analysis of the deposited data

Results flagged for a closer look

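A pool stood apart from the other 4 of its genotype in 3 of the 54 sets of 5 pools checked (27 genes), by the gap to its nearest neighbour as a share of the whole range. Chance gives about 1 in 20. Egln2 read 9.00 in PR+/- pool 3, above the other PR+/- pools. Cited4 read 11.27 in PRKO pool 5, and Epha5, one of the closest profiles to Egln3, read 8.03 in PRKO pool 1.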

How the results depend on the processing

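Epas1 stayed lower and Egln3 higher in PRKO, both past the threshold, under all 18 other fits over all genes (array weights, a robust prior, an intensity trend, the replicate block, the mean of probe sets, median centring, quantile normalization, dim genes left out and each pool left out). Their differences ran from -1.63 to -1.36 (adjusted p up to 0.000441) and from 0.87 to 1.07 (up to 0.00883), and with the replicate block the adjusted p were 0.000335 and 0.00305. The other 8 genes passed in none of these fits; Hif3a had no value where dim genes were left out. The exact permutation test, unadjusted, passed for Hif1an (0.16). The replicate block for related genes, which flips the signs of 5 same-numbered pairs, cannot go under an exact p of 0.0625, and the differences of -1.31, 0.99 and 1.04 then had an adjusted exact p of 0.104, so this setting says nothing about them. In limma the replicate block brought the count of other bHLH-PAS factors higher in PRKO to 1 (Ahr). It kept the calls of Epas1, Egln3, Cited4, Ddit4, Pfkfb3 and Pfkfb4. Quantile normalization, leaving out dim genes, an intensity trend and array weights each gave 1 HIF cofactor lower in PRKO, Ep300 (-0.28, -0.27, -0.27 and -0.26). At an adjusted p under 0.01, 0 HIF cofactors were higher, and over all genes 210 were lower and 48 higher. Leaving out a pool gave 85 to 161 higher genes and 265 to 334 lower ones; against 150 higher in the full fit, the count was lowest without PRKO pool 1 (89) or 5 (93) or PR+/- pool 1 (92), 3 (85) or 4 (95). Among paired numbers, 3 of 5 PRKO pools were closest to the PR+/- pool of their own number. The number of pools and the signal over background limit what can be seen, and Hif3a lay at background. Transcripts do not show the hydroxylation or stability of HIF proteins.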
